A study of Caenorhabditis elegans with 2 samples.

Results

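The nuclear hormone receptor genes examined here are the 269 protein-coding genes of Caenorhabditis elegans whose name begins with nhr-, of 19973 protein-coding genes in all. Binding of the transcription factor MDL-1 around them was described from chromatin immunoprecipitation followed by sequencing (ChIP-seq) of whole worms at the fourth larval stage (L4). Each gene was given a window from 5 kb upstream of its most upstream annotated 5' end to the end of the gene, and a region was counted for the gene when its summit, the position of highest enrichment, lay in that window. The worms were of strain OP355, genotype unc-119(tm4063) III; wgIs355, which carries an insertion for mdl-1, and the animals were of mixed sex. There was 1 group with 2 biological replicates, fragmented by sonication, and no second condition. The antibody is given as mdl-1, while a note in the labels names KLU-1 as the protein with the GFP-FLAG tag and the other labels name MDL-1. As whole animals were used, no signal can be assigned to a tissue.

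Nuclear hormone receptors are transcription factors with a zinc-finger DNA-binding domain and a ligand-binding domain. Many respond to lipids, sterols or other small metabolites by recruiting coactivators or corepressors. The family is greatly expanded in nematodes, and most of the extra members descend from an ancestor related to the HNF4 class and lie in tandem arrays, many of them on chromosome V. Worm receptors are known for control of fat use, of the response to diet, of molting and of sterol-dependent development. MDL-1 belongs to the Mad family, whose members carry a basic helix-loop-helix and a leucine zipper, and pairs with the Max-like protein MXL-1, and dimers of this class bind the E-box CACGTG.

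The authors' list of reproducible ("optimal") regions on genome build ce11 held 1115 regions, and these were the 1115 of highest signal among the 30000 candidate regions of the pooled replicates. The signal is the value given by the authors' peak caller, which has no common scale across lists, and it ran from 48.2 to 701 in the optimal list. Each replicate also had a candidate list of 30000 regions. Read depth is unknown, and the exact (Clopper-Pearson) 95% intervals below cover only the counting of genes or regions. Neighbouring genes share regions, so they are not independent. No test between samples was made, because the series has a single group.

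An optimal region lay in the window of 32 of the 269 receptor genes (11.9%, interval 8.28% to 16.4%), against 7.46% of all protein-coding genes. The 32 genes were led by nhr-19, nhr-34, nhr-88, nhr-3, nhr-20 and nhr-14. In a narrower promoter window, which reached 1000 bp before and 200 bp past each annotated 5' end, 16 receptor genes (5.95%, interval 3.44% to 9.48%) had an optimal summit, against 3.17% of all genes. When each summit was given only to the gene with the nearest 5' end, 28 receptor genes (10.4%) had one, against 4.49%. That assignment set no limit of distance. It gave 42 regions, some of them outside the windows, so the 28 genes are not a subset of the 32. Candidate regions of any strength were common throughout the genome: 221 receptor genes (82.2%, interval 77.0% to 86.5%) had a pooled candidate in the window, against 76.2% of all genes.

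The 41 distinct optimal regions in receptor windows made up 3.68% of the optimal list, while the windows covered 1.87% of the genome. That is 21.9 optimal regions per Mb of receptor window, against 11.1 per Mb of the genome. Their median signal was 74.9, close to the median of 72.2 for the whole optimal list, and 6 of them ranked in its top 100. By gene, 2.23% of receptor genes had a best region of rank 1 to 100, against 0.676% of all genes. In 36 of the 41, the nearest annotated 5' end of any protein-coding gene was that of a receptor gene. Several of the 41 also lay in the window of a gene outside the family, among them those at nhr-10, nhr-57, nhr-85 and nhr-114. The receptor regions were thus denser than the genome at large, with a median signal near that of the list.

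Windows of 101 bp centred on the summit are shown for 10 of these regions, on the strand of the gene and from build ce11 of the RefSeq reference genome, because they hold the sequence features described for the family. Capitals mark the motifs found on either strand: CACGTG, its variant CACGCG (read as CGCGTG on the other strand) and the GA repeat GAGAGA (read as TCTCTC). The first 2 windows hold CACGCG, the next 5 hold CACGTG, those of nhr-88 and nhr-10 hold only GA repeats, and that of nhr-3 holds none of the 3 motifs.
nhr-19 (chrII:9603533-9603633, minus strand): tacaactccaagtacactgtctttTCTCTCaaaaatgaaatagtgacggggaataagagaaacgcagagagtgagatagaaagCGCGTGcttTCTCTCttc
nhr-21 (chrII:7337671-7337771, plus strand): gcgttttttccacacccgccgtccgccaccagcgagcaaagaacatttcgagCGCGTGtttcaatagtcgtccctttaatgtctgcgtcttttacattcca
nhr-34 (chrIV:9677792-9677892, minus strand): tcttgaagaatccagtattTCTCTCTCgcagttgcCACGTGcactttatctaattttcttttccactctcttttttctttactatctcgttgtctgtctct
nhr-32 (chrX:13251580-13251680, plus strand): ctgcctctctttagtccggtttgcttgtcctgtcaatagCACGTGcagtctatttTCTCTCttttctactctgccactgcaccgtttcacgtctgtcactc
nhr-135 (chrV:7093939-7094039, minus strand): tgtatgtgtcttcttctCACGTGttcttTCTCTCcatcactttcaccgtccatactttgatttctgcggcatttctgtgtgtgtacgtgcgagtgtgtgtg
nhr-31 (chrIV:8028485-8028585, minus strand): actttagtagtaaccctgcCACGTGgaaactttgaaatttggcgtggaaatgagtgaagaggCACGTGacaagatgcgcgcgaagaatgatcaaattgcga
nhr-60 (chrV:15774063-15774163, minus strand): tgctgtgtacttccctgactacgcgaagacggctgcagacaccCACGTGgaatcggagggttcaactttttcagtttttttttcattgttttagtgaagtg
nhr-88 (chrII:2974047-2974147, plus strand): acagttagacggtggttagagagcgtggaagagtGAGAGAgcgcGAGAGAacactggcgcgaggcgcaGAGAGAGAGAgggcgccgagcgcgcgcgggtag
nhr-10 (chrIII:7116804-7116904, minus strand): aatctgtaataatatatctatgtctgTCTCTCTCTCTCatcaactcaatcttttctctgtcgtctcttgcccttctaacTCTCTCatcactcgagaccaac
nhr-3 (chrX:14560409-14560509, plus strand): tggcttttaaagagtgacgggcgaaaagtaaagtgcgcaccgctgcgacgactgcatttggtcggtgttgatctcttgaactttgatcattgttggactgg
The nhr-19 window holds the strongest region of the family, and the nhr-31 window has 2 copies of CACGTG. The E-boxes of nhr-34, nhr-32 and nhr-135 each stand beside a GA repeat.

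The strongest region of the family lay in an intron of nhr-19. The region (II: 9603405-9603727) had a pooled signal of 362 and ranked 10 in the pooled list, with signals of 227 in replicate 1 and 132 in replicate 2, and it ranked 10 in each of them too. Its summit was 1943 bp downstream of the most upstream 5' end of the gene. Another intron region of nhr-19 had a pooled signal of 113 (rank 226, ranks 210 and 575 in replicates 1 and 2), and the remaining region had 72.7 (rank 552, ranks 482 and 988). All 3 therefore stood among the strongest 1115 regions of both replicates. The nearest 5' end to the weakest of them was that of mrpl-53, a mitochondrial ribosomal protein gene by its name.

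The next regions lay at nhr-34 and nhr-88, far upstream of the genes. At nhr-34 the summit was 2170 bp upstream (IV: 9677729-9677934), with a pooled signal of 194, a rank of 61, and signals of 134 and 67.03 in replicates 1 and 2. At nhr-88 it was 2542 bp upstream (II: 2973979-2974206), with a pooled signal of 192, a rank of 64, and signals of 122 and 72.3. Both regions ranked 77 or better in each replicate. The gene nhr-34 had 2 further optimal regions, both in introns, with pooled signals of 85.96 (rank 394) and 56.9 (rank 852). The first of these was much stronger in replicate 1 (rank 282) than in replicate 2 (rank 1874), while the second ranked 626 and 877.

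Regions at nhr-3, nhr-20 and nhr-14 closed the set of 6 in the top 100. The nhr-3 summit lay in an intron, 1955 bp downstream of the 5' end (X: 14560412-14560532), with a pooled signal of 178, a rank of 80, and signals of 108 and 65.9 in replicates 1 and 2. The nhr-20 summit was 4737 bp upstream (III: 4237758-4238153), with a pooled signal of 169.8, a rank of 90, and signals of 113 and 59.6. This region was near the edge of the window, and its nearest 5' end belonged to F43C1.7, at 4619 bp. The gene nhr-14, an HNF4-like receptor known for a role in iron uptake and innate immunity, had a summit 1415 bp upstream (X: 8477395-8477790) with a pooled signal of 169.5, a rank of 91, and signals of 100.4 and 77.4. A second optimal region of nhr-14, in an intron 860 bp downstream, had a pooled signal of 129 (rank 169, ranks 236 and 141).

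Of the other members of the 12 strongest, nhr-48 had its best summit in an intron, while nhr-1, nhr-21, nhr-32 and the pair of nhr-135 and nhr-286 had theirs upstream. At nhr-21 the summit was 1508 bp upstream (II: 7337523-7337918), with a pooled signal of 156 and signals of 118 and 61.9 in replicates 1 and 2. At nhr-1 it was 321 bp upstream (X: 17513544-17513939), with a pooled signal of 154 and signals of 96.9 and 61.3. Each of these regions ranked 127 or better in both replicates. At nhr-32 the summit was 334 bp upstream (X: 13251432-13251827), with a pooled signal of 134 and signals of 73.8 and 58.2, and a second region 1618 bp upstream had a pooled signal of 65.2. The gene nhr-48 is a relative of the vitamin D receptor branch that also holds DAF-12 and NHR-8. Its intron region (X: 15709577-15709972) had a pooled signal of 131, a rank of 168, and signals of 75.8 and 56.9, and a region 485 bp upstream had a pooled signal of 89.2. The upstream region of nhr-48 ranked 205 in replicate 1 and 1433 in replicate 2.

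The genes nhr-135 and nhr-286 are neighbours on chromosome V and share 1 region (V: 7093791-7094186), which lay 219 bp upstream of nhr-135 and 2379 bp upstream of nhr-286. Its pooled signal was 121 (rank 195), with signals of 75.5 and 47.6 in replicates 1 and 2. It was the strongest receptor region on chromosome V, although 62.1% of the receptor genes lie there. In all, 3 regions fell in the windows of 2 receptor genes, the other two being those at nhr-58 with nhr-132 and at nhr-50 with nhr-63. The 41 regions therefore made 44 pairs of a region and a gene.

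Summits were upstream of the receptor gene in 28 of the 44 pairs (63.6%, interval 47.8% to 77.6%) and in an intron in 15 (34.1%, interval 20.5% to 49.9%). Over the windows of all genes, 78.3% of 1836 optimal pairs were upstream and 17.4% were in introns. Weaker candidate regions in receptor windows were in introns in 25.4% of 814 pairs, and those of all genes in 24.3%. The intron share of the receptor genes was thus above that of all genes in the optimal list, where receptor genes with an optimal region also had longer gene bodies. None of the receptor summits lay in a coding exon (0 of 44, upper limit 8.04%), and 0.926% of the optimal pairs of all genes did, against 8.60% of the weaker receptor pairs and 7.76% of the weaker pairs of all genes. The remaining pair was the summit of nhr-50, 2 bp inside its 5' UTR.

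**Figure D1:**
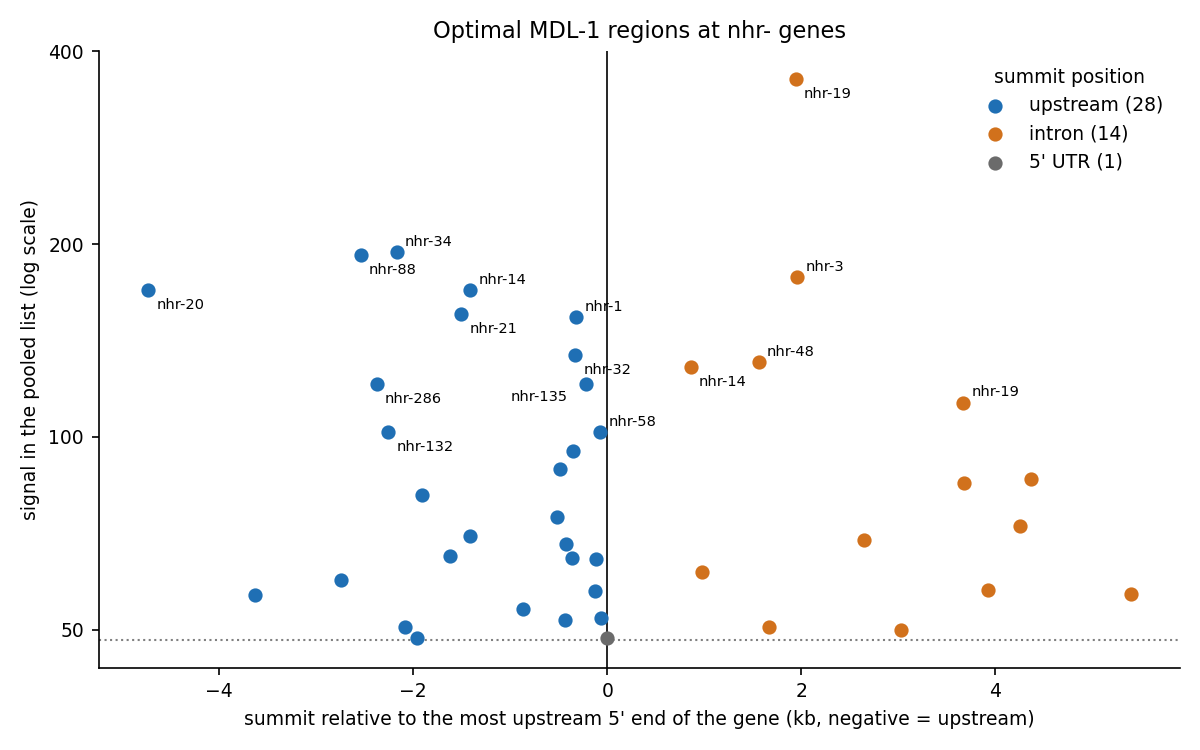
Pooled signal of optimal regions at receptor genes (y axis, log scale) against the distance of the summit from the most upstream 5' end of the gene (x axis, kb), with 1 point per region and gene pair, coloured by position. The dotted line is the lowest signal of the optimal list, 48.2, and the intron region of nhr-27 at 48556 bp downstream is not drawn; strong regions occur both upstream and in introns.

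The 15 intron pairs belonged to 10 genes, nhr-19, nhr-34, nhr-14, nhr-48, nhr-21, nhr-46, nhr-31, nhr-17, nhr-3 and nhr-27, and none of them lies on chromosome V. Their median signal was 84.7, and that of the upstream pairs was 78.0. In 3 of the intron pairs the nearest 5' end of the same gene was an internal one downstream of the summit. It lay 2194 bp away at nhr-21, 1081 bp at nhr-34 and 450 bp at nhr-31. Intron summits that lay before an internal 5' end further away were not counted. The gene nhr-27 is the longest protein-coding gene in the annotation (102756 bp). Its optimal region (signal 93.5, rank 328) lay 48556 bp inside the gene and 2316 bp from the 5' end of cept-1, so it cannot be assigned to nhr-27 by position. Among the upstream pairs, 14 lay within 1000 bp of the most upstream 5' end and 14 lay beyond it.

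Several receptor genes had more than 1 optimal region. There were 10 such genes (3.72%, interval 1.80% to 6.73%), against 1.28% of all genes. The genes nhr-19 and nhr-34 had 3 regions each, and nhr-14, nhr-17, nhr-21, nhr-31, nhr-32, nhr-35, nhr-46 and nhr-48 had 2 each. These 10 genes held 22 of the 41 regions, and 5 of them lie on chromosome X and none on chromosome V. At nhr-31, known for its role in the excretory tubule, where it controls genes of the vacuolar ATPase, both regions were in introns (signals 61.5 and 49.9). Both also held a CACGTG.

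The share of receptor genes with an optimal region differed between chromosomes. On chromosome X it was 8 of 23 (34.8%, interval 16.4% to 57.3%), against 11.6% of all genes there, and on chromosome II 4 of 15 (26.7%, interval 7.79% to 55.1%), against 6.78%. On chromosome III it was 2 of 8 (25%), against 10.5%, on chromosome IV 3 of 33 (9.09%), against 6%, and on chromosome I 2 of 23 (8.70%), against 7.47%. On chromosome V it was 13 of 167 (7.78%, interval 4.21% to 12.9%), against 5.01%. The receptor share was above that of all genes on each chromosome, but the interval excluded the value of all genes only on chromosomes II and X. These shares were not matched for window length, and the 4 genes on chromosome II all had windows of 11585 bp or more. The 8 on chromosome X include nhr-27, whose region cannot be assigned to it by position. Without chromosome X, 24 of 246 receptor genes (9.76%, interval 6.35% to 14.2%) had an optimal region, against 6.81% of all autosomal genes. The top 1115 regions of a single replicate gave 6 receptor genes on chromosome IV for replicate 1 and 5 for replicate 2, and 1 on chromosome I for replicate 1.

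Chromosome X held 13 of the 41 receptor regions (31.7%), against 25.9% of all optimal regions. The median signal of receptor regions was highest there, at 93.5, against 64.6 on chromosome V and 78.7 on the others. Chromosome V held 10 regions, shared by 13 genes.

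Longer windows held an optimal region more often. With all genes divided by window length into 4 classes of nearly equal size, the receptor genes had an optimal region in 0 of 6 in the shortest class (upper limit 45.9%, against 6.04% of all genes). In the next class it was 4 of 91 (4.40%), against 5.03%, then 12 of 108 (11.1%, interval 5.87% to 18.6%), against 6.78%. In the longest class, with windows of 8634 bp or more, it was 16 of 64 (25%, interval 15.02% to 37.4%), against 12% of all genes. In the longest class alone the interval excluded the value of all genes. The receptor genes with an optimal region had a median length of 3435.5 bp and those without 2234 bp, against 2027 bp for all genes and 2829.5 bp for all genes with an optimal region. Several annotated 5' ends were present in 50% of the receptor genes with an optimal region and 33.3% of those without, against 41.5% of all genes with an optimal region and 26.3% of all genes.

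Receptor genes that stand alone had optimal regions more often than those in large clusters. Clusters were formed from receptor genes at most 10 kb apart, which gave 44 clusters with 159 genes and left 110 genes alone. An optimal region was present for 21 of the 110 lone genes (19.1%, interval 12.2% to 27.7%), 10 of 86 genes in clusters of 2 to 4 (11.6%, interval 5.72% to 20.3%) and 1 of 73 in clusters of 5 or more (1.37%, interval 0.0347% to 7.40%). The share of all protein-coding genes was 7.46%. A pooled candidate of any strength was present for 90.4% of the genes in clusters of 5 or more, 69.8% of those in clusters of 2 to 4 and 86.4% of the lone genes, against 76.2% of all genes. The low count in large clusters depended on the optimal list: the top 1115 regions of replicate 1 gave 7 of 73 genes there (9.59%) and those of replicate 2 gave 4 (5.48%), close to the 7.46% and 7.37% of all genes. For lone genes the same counts were 21 and 23 of 110. Neighbours in the large clusters shared top regions. In replicate 1 these were nhr-110 with nhr-237, and nhr-140 with nhr-162 and nhr-42. In replicate 2 nhr-117 shared a region of rank 940 with nhr-179 and a region of rank 1078 with nhr-110. Only nhr-110 was in both counts, by different regions, so no gene there had the same top region in both replicates.

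Gene length and chromosome went along with clustering. The median gene length was 3221 bp for lone genes, 2052.5 bp in clusters of 2 to 4 and 2173 bp in clusters of 5 or more, and 68 of the 73 genes in the large clusters lie on chromosome V. On that chromosome an optimal region was present for 4 of 45 lone genes (8.89%), 8 of 54 in clusters of 2 to 4 (14.8%), and 1 of 68 in larger clusters (1.47%). The share of all genes there was 5.01%. On the other chromosomes the counts were 17 of 65 (26.2%), 2 of 32 (6.25%) and 0 of 5. The share of all genes on those chromosomes ran from 6% on chromosome IV to 11.6% on chromosome X. Counted by gene, the order of lone genes before clusters of 2 to 4 was seen on the other chromosomes and not on chromosome V. The 8 genes there include the 3 pairs of neighbours that share 1 region each, so they rest on fewer regions than genes. The part of gene length in this order was not tested.

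**Figure D2:**
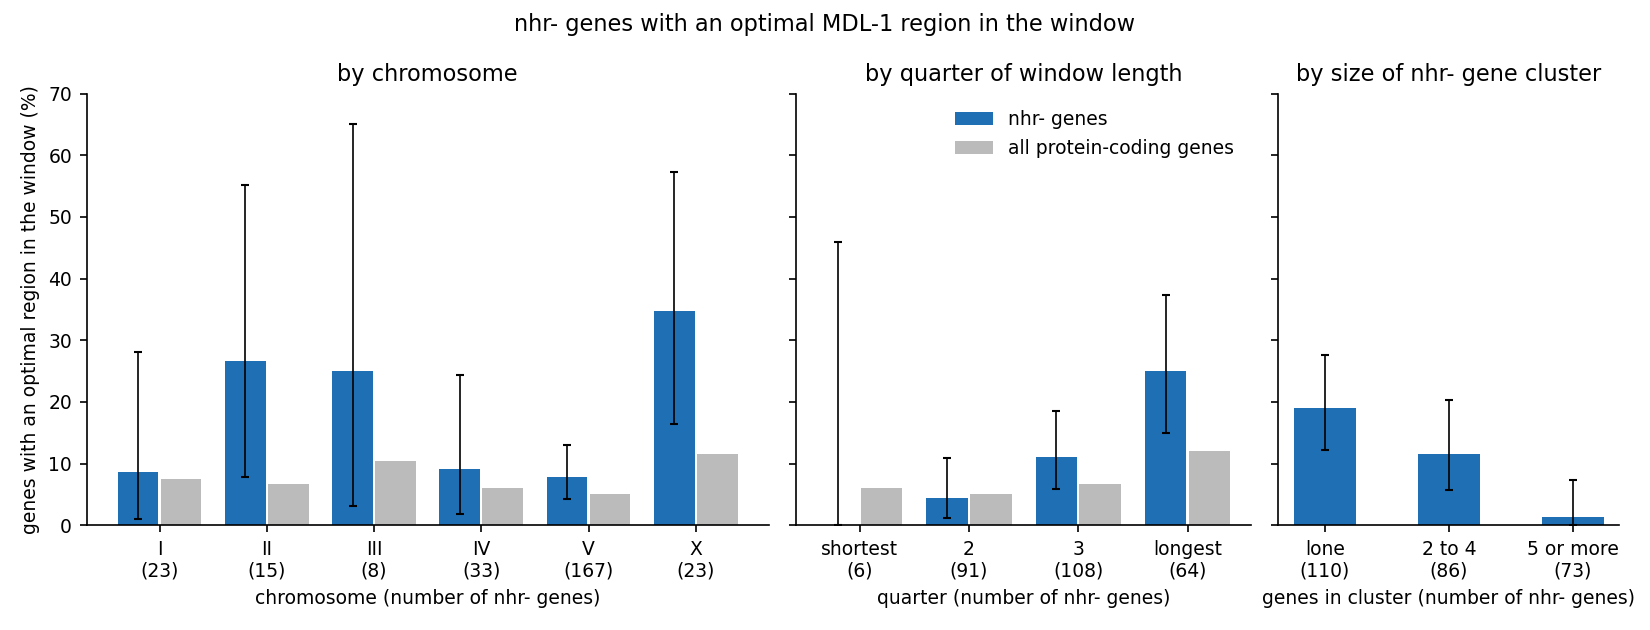
Share of receptor genes with an optimal region in the window (blue bars, %, with exact 95% intervals) by chromosome, by 4 classes of window length and by cluster size, with all protein-coding genes in grey where drawn and the number of receptor genes in brackets. The highest blue bar is that of chromosome X at 34.8%, the share rises over the window classes to 25%, and among the cluster sizes it is lowest for 5 or more genes at 1.37%.

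The largest cluster holds 12 receptor genes from nhr-123 to nhr-131 (V: 451451-497297). It had 24 pooled candidate regions and no optimal one, and its best pooled rank was 3468. Of the 9 clusters of 5 or more genes, only that of nhr-133 (V: 2210510-2235180, 9 genes) had an optimal region, with a signal of 52.2, a rank of 982 and a summit 63 bp upstream of nhr-133. The best pooled ranks of the other large clusters ran from 1152 to 5641. The cluster with the rank of 1152 holds nhr-237 and nhr-110 among its 7 genes. Of the 44 clusters of any size, 8 had an optimal region.

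Among receptors of the classes that are conserved between nematodes and other animals, 2 of 10 had an optimal region, nhr-48 and nhr-85, against 7.46% of all genes. All but nhr-8 and nhr-111 had windows in the longest class (8634 bp or more), where the share of all genes was 12%. The gene nhr-85, of the Rev-erb class, acts with NHR-23 in the pulsed transcription of the developmental microRNA gene lin-4. Its region 2085 bp upstream had a signal of 50.4 and a rank of 1036, and it ranked 1247 in replicate 1 and 959 in replicate 2. In the top 1115 of replicate 1 only nhr-48 remained of the 10. The best pooled rank was 2036 for nhr-41, 2104 for nhr-25, a steroidogenic factor class receptor of the epidermis and the molt, and 2843 for nhr-23, the ROR-class receptor of molting. It was 3388 for nhr-91, of the GCNF class, and 6935 for nhr-111, a relative of tailless. The genes nhr-6, of the Nurr class and known for development of the spermatheca, and nhr-67, the tailless-class receptor of the anchor cell, had pooled candidates of rank 14917 and 29768 that overlapped no region of either replicate list. No pooled candidate lay in the window of nhr-8, known for cholesterol balance and for the response to toxic compounds.

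Of the 7 receptors tied to lipid metabolism and fasting, 1 had an optimal region (14.3%, against 7.46% of all genes). All but nhr-80 had windows in the longest class (8634 bp or more), where the share of all genes was 12%. The gene with an optimal region was nhr-49, whose product promotes fat oxidation and plays a part like that of mammalian PPAR alpha. Its summit lay 353 bp upstream (I: 9869100-9869495) with a pooled signal of 95.2 and a rank of 316, and signals of 56.4 and 37.5 in replicates 1 and 2. It ranked 415 and 302 there, so that both replicates held it in their top 1115. The gene nhr-66, which encodes a partner of NHR-49, came next with an intron region of pooled rank 1239 (signal 45.6) that ranked 1006 in replicate 1 and 1611 in replicate 2. The top 1115 regions of replicate 1 therefore gave 2 of the 7. The other partners of NHR-49 had weaker regions, with a best pooled rank of 3417 for nhr-80 and 13642 for nhr-13. For nhr-76, which acts in serotonin-driven fat loss, it was 6078, for nhr-64 6940, and for nhr-62, required for long life under dietary restriction, 7217.

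Receptors of metabolites and foreign compounds had optimal regions in 3 of 7 cases, nhr-10, nhr-68 and nhr-114, against 7.46% of all genes. The genes nhr-10 and nhr-68 act together in the transcriptional response to excess propionate when vitamin B12 is low. The nhr-10 summit was 1416 bp upstream (III: 7116656-7117051) with a signal of 69.99 and a rank of 595, and it ranked 803 and 511 in replicates 1 and 2. The nhr-68 summit was 367 bp upstream of the gene and 83 bp from the 5' end of H12C20.7, with a signal of 64.8 and a rank of 685. That region rests on replicate 1, where it ranked 382, since it ranked 14468 in replicate 2. The gene nhr-114, needed for fertility on a diet low in vitamin B12, had a summit 514 bp upstream (signal 74.9, rank 519, ranks 492 and 936). This summit also lay inside the body of another protein-coding gene, Y45G5AM.9. In the top 1115 of replicate 2 the count was 2 of 7, without nhr-68.

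The remaining genes of this list had weaker regions or none. The best pooled rank was 2148 for nhr-86, whose product senses a bacterial phenazine, and 3968 for nhr-45. No pooled candidate lay in the windows of nhr-176, known for detoxification of thiabendazole, or nhr-8.

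**Figure D3:**
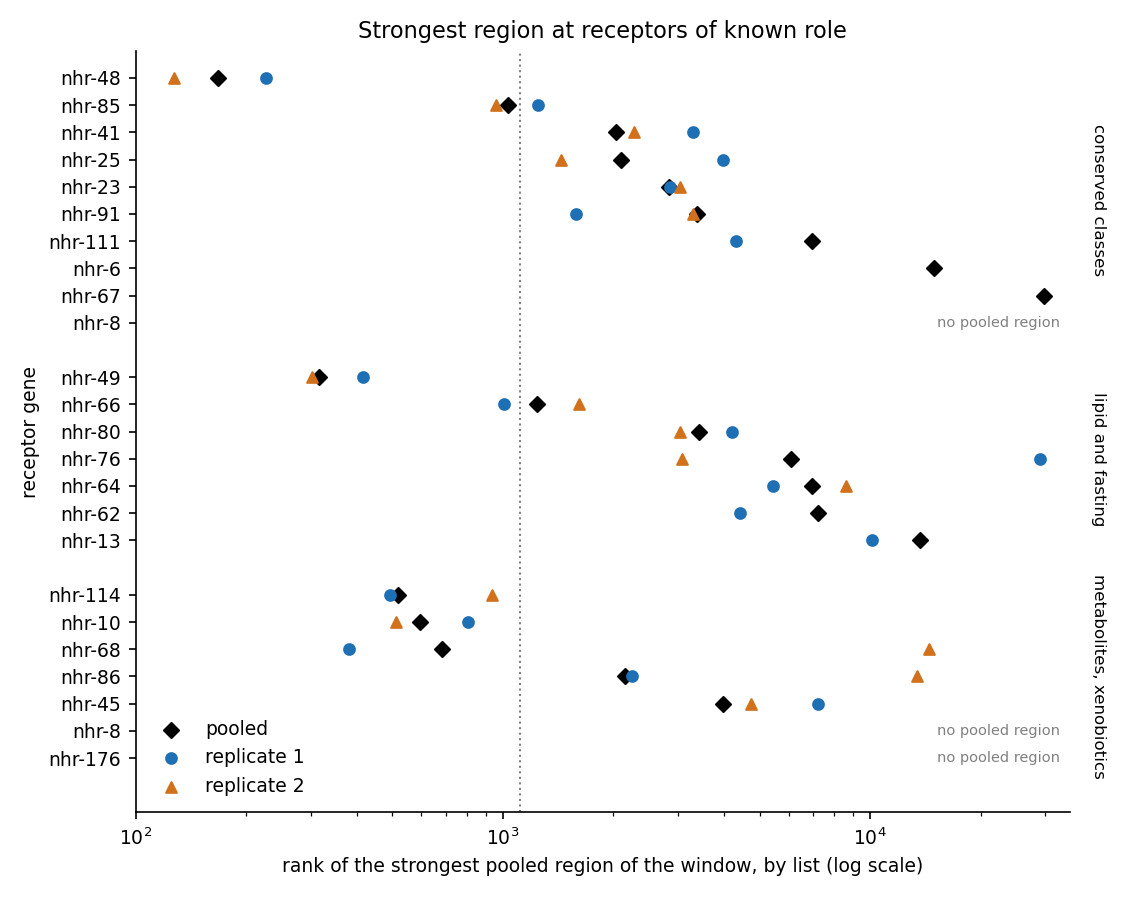
Rank of the strongest pooled region in the window of each receptor of the lists of conserved classes, lipid metabolism and metabolites (x axis, log scale), with black diamonds for the pooled list and coloured points for the rank of the same region in each replicate list. Points left of the dotted line at 1115 are in the top of their list; 6 different receptors have an optimal region, and nhr-68 is far apart between the replicates, at ranks 382 and 14468.

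The other receptor genes with an optimal region had weaker signals, with 102 at most. The region shared by nhr-58 and nhr-132 (V: 531989-532384) had a signal of 102 and a rank of 278, with the summit 72 bp before the 5' end of nhr-58. It ranked 271 and 365 in replicates 1 and 2. The gene nhr-46 had 2 intron regions with signals of 84.7 (rank 412) and 50.6 (rank 1028). Upstream regions lay at nhr-70 (signal 81.1, 1915 bp), nhr-180 (64.4, within 1000 bp), nhr-60 (53.8, 872 bp) and nhr-119 (51.7, 438 bp). At nhr-57, a gene induced by low oxygen through HIF-1, the summit was 127 bp upstream with a signal of 57.4.

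Both regions of nhr-35 were upstream, by 421 bp (signal 67.99) and 3636 bp (signal 56.6). The gene nhr-17 had 1 upstream region, at 2740 bp (signal 59.8), and 1 in an intron (signal 68.9) whose nearest 5' end was that of nlp-76. The intron summit of nhr-17 was also 23 bp from an annotated tRNA gene on the plus strand (X: 12665228-12665311). The weakest region, shared by nhr-50 and nhr-63, had a signal of 48.5 and a rank of 1106. It ranked 1717 and 1965 in replicates 1 and 2, outside the top 1115 of both.

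Just below the optimal list, 29 receptor genes (10.8%) had their best pooled region between rank 1116 and rank 2230, against 6.28% of all genes. The closest was nhr-43, whose best region had a signal of 48.1 and a rank of 1128, 1755 bp upstream of the gene, against 48.2 as the lowest optimal signal. It ranked 3450 and 960 in replicates 1 and 2. The next was a region of rank 1152 (signal 47.3) shared by nhr-237 and nhr-110, which ranked 649 in replicate 1 and 8395 in replicate 2. A region of rank 1173 (signal 47.0) in the windows of nhr-42, nhr-162 and nhr-140 ranked 1013 and 8304. Each of these near misses was in the top 1115 of a single replicate.

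Of the 237 receptor genes with no optimal region, 189 had a weaker pooled candidate and 48 had none. The 48 are 17.8% of the family, and 23.8% of all genes had none. For 118 receptor genes (43.9%) the best pooled rank was beyond 5000, against 49.8% of all genes. No region of the pooled list or of either replicate list lay in the windows of 10 receptor genes (3.72%), against 8.58% of all genes.

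Most receptor regions were supported by both replicates. Of the 41, 27 (65.9%, interval 49.4% to 79.9%) were among the top 1115 regions of both replicates, compared with 64.3% of all optimal regions. A further 8 were in the top of replicate 1 only and 5 in that of replicate 2 only, and the region of nhr-50 and nhr-63 was in neither. By difference in rank, the widest gaps were at nhr-68 (ranks 382 and 14468), the nhr-21 intron (489 and 5082), the upstream region of nhr-17 (581 and 3120) and the far region of nhr-35 (863 and 2814), each stronger in replicate 1. By ratio of ranks, the upstream region of nhr-48 (205 and 1433) and the stronger intron region of nhr-34 (282 and 1874) lay further apart than those of nhr-17 and nhr-35. The second region of nhr-46 was stronger in replicate 2 (ranks 1835 and 663). As a description, the ranks in both replicates had a Spearman correlation of 0.64 and the log2 signals a Pearson correlation of 0.73 over the 41 regions, which were chosen from these same libraries. Over 1113 optimal regions found in both lists the values were 0.59 and 0.66.

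**Figure D4:**
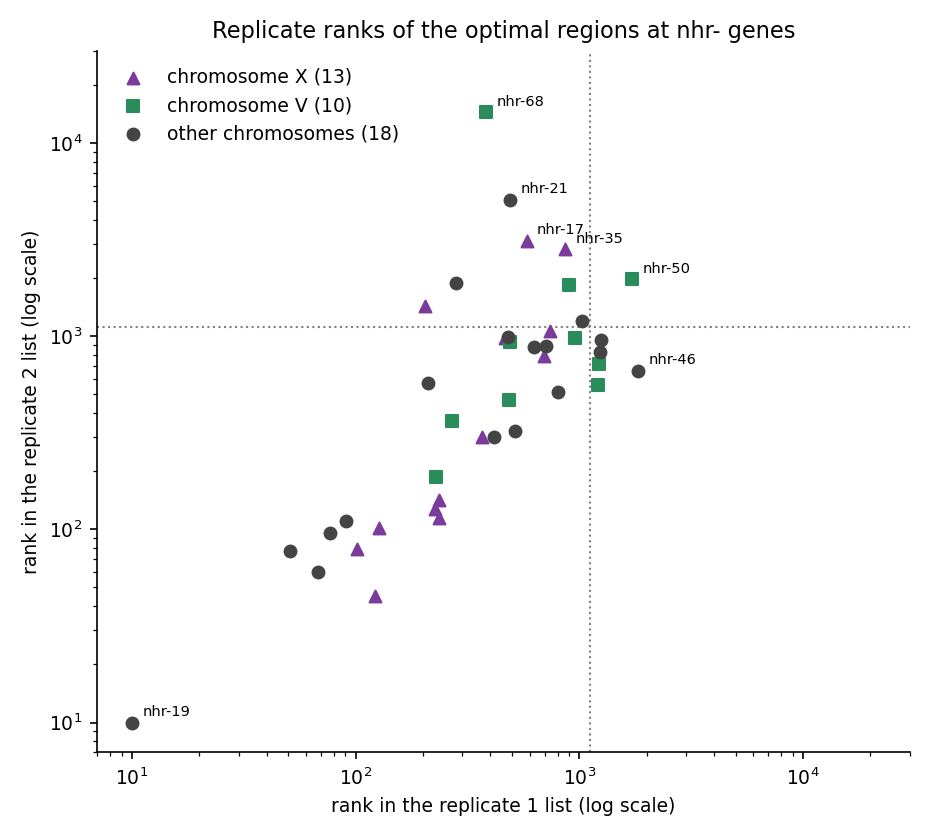
Rank of each of the 41 distinct optimal regions at receptor genes in the replicate 1 list (x axis) and the replicate 2 list (y axis), both on log scales, with chromosome X as triangles, chromosome V as squares and the others as circles. Dotted lines mark rank 1115; 27 regions lie inside both lines, nhr-19 is at rank 10 in each, and nhr-68 is at rank 14468 in replicate 2.

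Each replicate taken alone gave a similar number of receptor genes. The top 1115 regions of replicate 1 fell in the windows of 38 (14.1%, interval 10.2% to 18.9%), against 7.46% of all genes, and those of replicate 2 in 34 (12.6%, interval 8.91% to 17.2%), against 7.37%. There were 26 receptor genes (9.67%, interval 6.41% to 13.8%) with a top region of both, against 5.08%. Of those 26, 24 had an optimal region. The other two, nhr-40 and nhr-110, had different regions in the tops of both replicates. For nhr-40, known for muscle development in the embryo and named here after its values were seen, the best rank was 720 in replicate 1, 848 in replicate 2 and 1329 in the pooled list. For nhr-110 it was 649, 1078 and 1152.

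The E-box CACGTG lay within 50 bp of the summit in 10 of the 41 receptor regions (24.4%, interval 12.4% to 40.3%), against 19.2% of all optimal regions. These were at nhr-34 (2 regions), nhr-31 (2 regions), nhr-32, nhr-135 with nhr-286, nhr-19, nhr-27, nhr-35 and nhr-60. Among weaker candidates it was found in 3.70% of 675 regions in receptor windows and 2.96% of all 28885. The receptor share was therefore near that of the optimal list as a whole and above that of the weaker regions. It was 15.6% over the 45 receptor regions in the top 1115 of replicate 2, and it was 14.6% with 25 bp and 36.6% with 100 bp searched on either side of the summit. Shares of all regions are not given for these settings, so the values have no counterpart to the 19.2%. A wider search can only add matches.

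The variant CACGCG was in 2 receptor regions, the strongest ones of nhr-19 and nhr-21 (4.88%, interval 0.596% to 16.5%), against 10.3% of all optimal regions. The GA repeat GAGAGA was in 18 (43.9%, interval 28.5% to 60.3%), against 36.5% of all optimal regions and 8.30% of weaker regions in receptor windows. At least 1 of the 3 motifs was present in 24 regions (58.5%), against 55.9%, and 17 had none, among them both regions of nhr-46 and those at nhr-3 and nhr-49. All 3 motifs were searched on both strands, no receptor region held both CACGTG and CACGCG, and a match is a description, not a binding site. The mean GC content of the 101 bp windows was 45.6%, and 48.4% for all optimal regions.

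**Figure D5:**
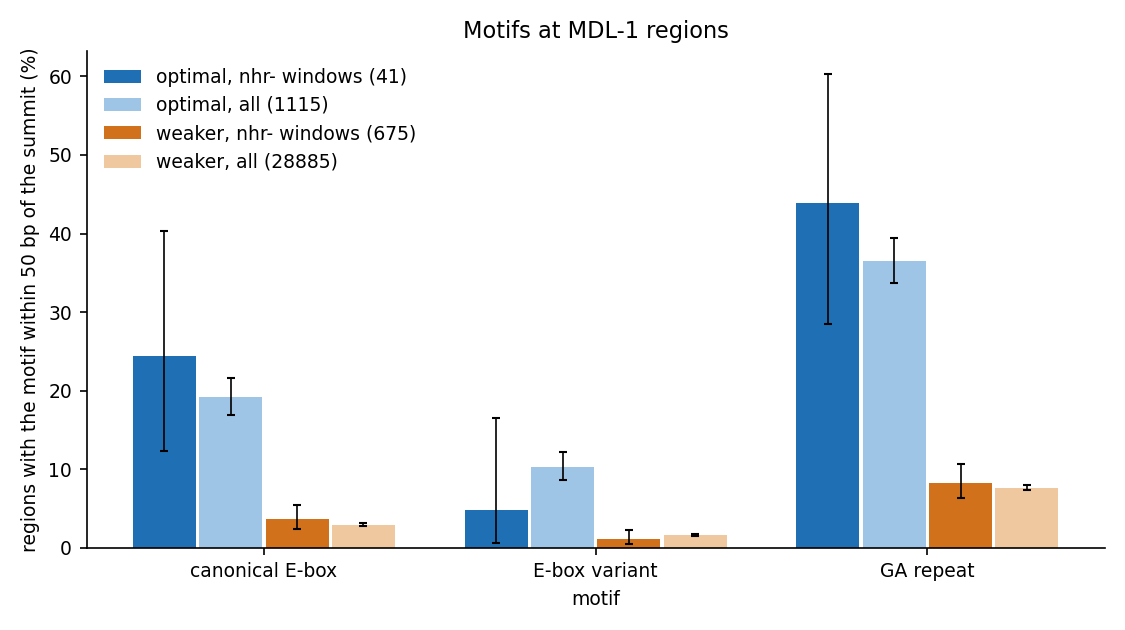
Share of regions with CACGTG (canonical E-box), CACGCG (E-box variant) or GAGAGA (GA repeat) within 50 bp of the summit (y axis, %, with exact 95% intervals), for optimal and weaker regions in receptor windows and in the whole lists, with the number of regions in brackets. Both optimal sets stand above both weaker sets for CACGTG and GAGAGA, and the optimal receptor regions have wide intervals that include the values of all optimal regions.

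Genes that work with these receptors were described in the same way. Of 5 nuclear receptor genes with other names, 1 had an optimal region, against 7.46% of all genes. This was daf-12, the receptor of dafachronic acid, whose window is long at 35968 bp, against a median of 7027 bp for all genes. Its region lay in an intron 1683 bp downstream of its 5' end (signal 90.4, rank 356, ranks 288 and 902 in replicates 1 and 2). The genes unc-55, fax-1, odr-7 and sex-1 had none. Of 8 genes of coregulators and of the ligand pathway, cbp-1, din-1 and mdt-15 had optimal regions, against 7.46% of all genes. All but daf-36 and dhs-16 had windows in the longest class (8634 bp or more), where the share of all genes was 12%. The region of cbp-1, which encodes a CBP-class acetyltransferase, had its summit 813 bp upstream, a signal of 235.02 and a rank of 34. The gene din-1, which encodes a corepressor of DAF-12, had 4 optimal regions, the best of rank 147. The region counted for mdt-15, a Mediator subunit and partner of NHR-49, had a rank of 322 and lay 4624 bp upstream, with W04D12.1 as the nearest 5' end. The enzyme genes daf-9, daf-36, hsd-1, dhs-16 and strm-1 had none.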

How the data were processed

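ChIP-seq peak lists of 2 biological replicates (1 group) were used. Per the deposited text files, candidate regions were called for each replicate from that replicate's alignment with 1 other parent file, the pooled list used both alignments, and the optimal list was drawn from the replicate and pooled lists after a test of reproducibility (IDR). Not given in the sources used here are the aligner, the peak caller, the IDR threshold and the depth. Controls were not analysed here. The deposited signal of a region is that of the authors' peak caller and has its own scale per list, so signals were ranked and summarised within lists. Across lists, signals were set against each other only in the descriptive correlation of log2 signals between replicates. The ce10 lists were not used.

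Windows, positions and motifs were computed on ce11 (Ensembl release 115 annotation, WBcel235; reference sequence from RefSeq) with numpy 2.4.6, scipy 1.17.1 and pandas 2.3.3 under Python 3.11.15. A pooled region was matched to the best-ranked replicate region that overlapped it by at least 1 bp, and the top of a replicate list was its 1115 strongest regions. The code was checked on simulated data, where it recovered 200 of 200 planted genes and 500 of 500 planted motifs.

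Every receptor gene with an optimal region was named, with full values for the 12 of highest signal. Others were named only from the 3 receptor lists, from clusters of 5 or more genes, or as the 5 closest below the optimal list; a gene tied with them and 1 further gene were added after their values were seen. Members and lists were chosen with earlier results of these data known, so no test was made. Alternatives covered the window, the assignment to genes, the peak set, the motif window, the cluster gap and each replicate alone.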

Additional observations from a re-analysis of the deposited data

How the results depend on the processing

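Of 30 changes of setting, 25 left a result within 1.5 times of the reported count or within its interval. The 32 of 269 receptor genes with an optimal region became 16 in the promoter window (against 3.17% of all genes) and 19 with the 557 strongest optimal regions (against 3.8%), and the 41 regions became 16 and 22. These settings keep fewer bases or fewer regions by construction. Support by both replicates was 90.2% with the top 2230 regions of each. Leaving out each replicate in turn gave 34 to 38 receptor genes with a top region, 226 to 236 with a candidate, 45 to 48 regions, 65.3% to 70.4% upstream, 15.6% to 20.8% with CACGTG, and 7 to 11 clusters. A window reach of 2 kb gave 27 genes (against 4.94% of all genes) and 35 regions. Of 38 counts by chromosome, window length, cluster size and list that were redone with each replicate alone, an alternative added after the data were seen, 8 moved by over 1.5 times. These included 4 to 7 genes in clusters of 5 or more, some of them sharing a region, where the optimal list gave 1. No paired analysis was possible because there is 1 group. Depth is unknown, so it cannot be said which weak regions more reads would have brought into the optimal list.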

Other observations

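The word CTGCGT was searched after the summit sequences had been read, so its counts are a description. It lay within 50 bp of the summit in 9 of the 41 receptor regions (22.0%, interval 10.6% to 37.6%), at nhr-19, nhr-21, nhr-1, nhr-58 with nhr-132, nhr-46, nhr-70, nhr-17, nhr-133 and nhr-119. It was in 20.1% of all optimal regions, 4.44% of the 675 weaker regions in receptor windows and 3.01% of all weaker regions. The longer word CTGCGTCTC was in 6 receptor regions (14.6%), at nhr-1, nhr-58 with nhr-132, nhr-70, nhr-17, nhr-133 and nhr-119, against 145 of 1115 optimal regions and 1.14% of all weaker regions. Of the 17 receptor regions without any of the 3 motifs of the report, 3 held CTGCGT (17.6%), against 15.9% of such optimal regions overall.

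Annotated tRNA, snoRNA, snRNA, rRNA or miRNA genes lay within 250 bp of the summit in 1 of the 41 receptor regions (2.44%), that of the nhr-17 intron, against 7.17% of all optimal regions.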
